A study of Mus musculus with 6 samples.

Results

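The 9 genes described here encode the SLAM family of surface receptors: Slamf1, Cd48, Cd244, Ly9, Cd84, Slamf6, Slamf7, Slamf8 and Slamf9. They were found on the arrays by gene name, which gave 13 of the 55681 probes and 9 of the 34650 gene names that are not controls. Transcripts were measured in bone marrow cells of 3 wild-type (WT) and 3 Spred1 knockout (KO) samples, all of strain C57BL/6, each on its own 1-colour array. The sort took c-Kit-positive, Sca-1-positive cells that lacked lineage markers and CD48, a population rich in blood stem cells and the progenitors nearest to them, so the protein of 1 of the 9 genes was itself used to choose the cells. The animals' age and sex, the deleted part of Spred1 and whether each sample came from a separate animal are not stated in the labels, and the p-values rest on a spread between samples that may be technical only.

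SLAM receptors belong to the immunoglobulin superfamily, and most of them bind a copy of themselves on a neighbouring cell, whereas CD48 and CD244 bind each other. Most carry a switch motif with a tyrosine in the cytoplasmic tail, which recruits small SH2-domain adaptors of the SAP family. CD48 has no such tail and is held in the membrane by a lipid anchor. In mouse bone marrow the proteins are used to divide stem cells from their progeny: CD150, the product of Slamf1, marks stem cells, CD244 is used to mark multipotent progenitors, and CD48 marks more restricted progenitors. Spred1 encodes an inhibitor of the Ras-ERK kinase cascade. The comparison of KO with WT asks whether transcripts of these receptors differ when it is lost.

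Of the 13 probes, 2 match the codon pattern of the switch motif, and they are shown because this pattern belongs to the part of the receptor that binds the adaptors. In each of them, a reading frame of the probe's own strand without a stop codon holds a threonine codon, any codon, a tyrosine codon, any 2 codons and then a valine or isoleucine codon. These 18 bases, from base 29 to base 46, are in capitals. The same pattern in an open frame was found in 0.298% of all 55681 probes. A probe of Cd48, the lipid-anchored member, is shown beside them: it has an open frame and no such pattern. A match describes the letters of the probe and says nothing of the protein's use. Positions are on mouse build mm9. The Ly9 probe is at chr1:173523555-173523614 on the minus strand, the Slamf6 probe at chr1:173871767-173871826 on the plus strand and the Cd48 probe at chr1:173629721-173629780 on the plus strand.
Ly9 probe A_55_P1989976: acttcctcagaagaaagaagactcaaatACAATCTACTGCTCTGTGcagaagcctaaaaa
Slamf6 probe A_55_P2182467: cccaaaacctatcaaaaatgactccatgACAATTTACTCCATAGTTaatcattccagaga
Cd48 probe A_55_P2132549: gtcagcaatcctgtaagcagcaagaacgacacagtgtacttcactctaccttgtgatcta

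Signals are given on the log2 scale after subtraction of each array's own 75th percentile, so that 0 is a signal equal to that percentile. A level belongs to its probe and is compared between arrays, never between probes. Of Spred1 itself, 3 probes were well above background on every array and differed by -0.98, -0.14 and 2.44 (KO minus WT), the last past the adjusted limma threshold over all probes (adjusted p = 0.012). As the deleted part is not known here, none of them checks the genotype labels. The scanner software called 52.3% to 53.4% of spots per array well above background, and arrays correlated at Pearson r between 0.988 and 0.995 over 19611 genes, which are not independent replicates. Of the gate's own genes, Kit (5.25 ± 0.21 in WT and 5.16 ± 0.07 in KO, mean ± SD, n = 3 each) and Ly6a, which encodes Sca-1 (4.59 ± 0.28 and 4.67 ± 0.21), were well above background on every array. So were the lineage genes Cd3e, Cd4, Cd5, Itgam and Ly6g, while Cd8a was so on none. WT replicate 1 stood apart in most neutrophil markers and in 2 globin genes. The median of 10 neutrophil markers lay at -1.68 there relative to the WT mean. In WT replicates 2 and 3 that median was 0.86 and 0.78, and the KO values ran from 0.09 to 0.53. Their summed signal, in multiples of the 75th percentile, was 112 to 582 in WT and 373 to 485 in KO, and all 10 were well above background on every array. Among them, Prtn3 read 2.837, 3.246 and 2.886 on WT replicates 1 to 3. The globin genes Hba-a1 (3.364, 5.513 and 5.326) and Hbb-b1 (0.357, 2.415 and 2.158) were lowest on WT replicate 1. The median of 6 erythroid markers was 0, 0.07 and 0.19 on these arrays.

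Part of the SLAM family was readable in these cells. Transcripts of 6 genes (Slamf1, Cd48, Cd244, Ly9, Cd84 and Slamf8; 9 probes) were well above background on all arrays of both genotypes. Slamf6, Slamf7 and Slamf9 were well above background on some arrays only and did not pass the filter, which asks for all 3 arrays of at least 1 genotype. No member passed the adjusted threshold of 0.05 in limma, over all genes or over all probes, where 0.0204% of the 19611 genes and 0.0324% of the 27809 probes did. At an unadjusted limma p under 0.05, Slamf1 was lower in KO and Slamf8 higher, 2 of the 6 genes (and 2 of the 9 probes) against 12.2% of all genes (and 11.4% of all probes). The genotypes did not overlap in Cd244 and Slamf8, 2 of the 6 genes against 19.4% of all genes. The median difference of the 6 genes was 0.14 on the log2 scale, beside -0.0056 for all genes, and 1 of the 6 had a lower value in KO, as 51.1% of all genes did.

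**Figure D1:**
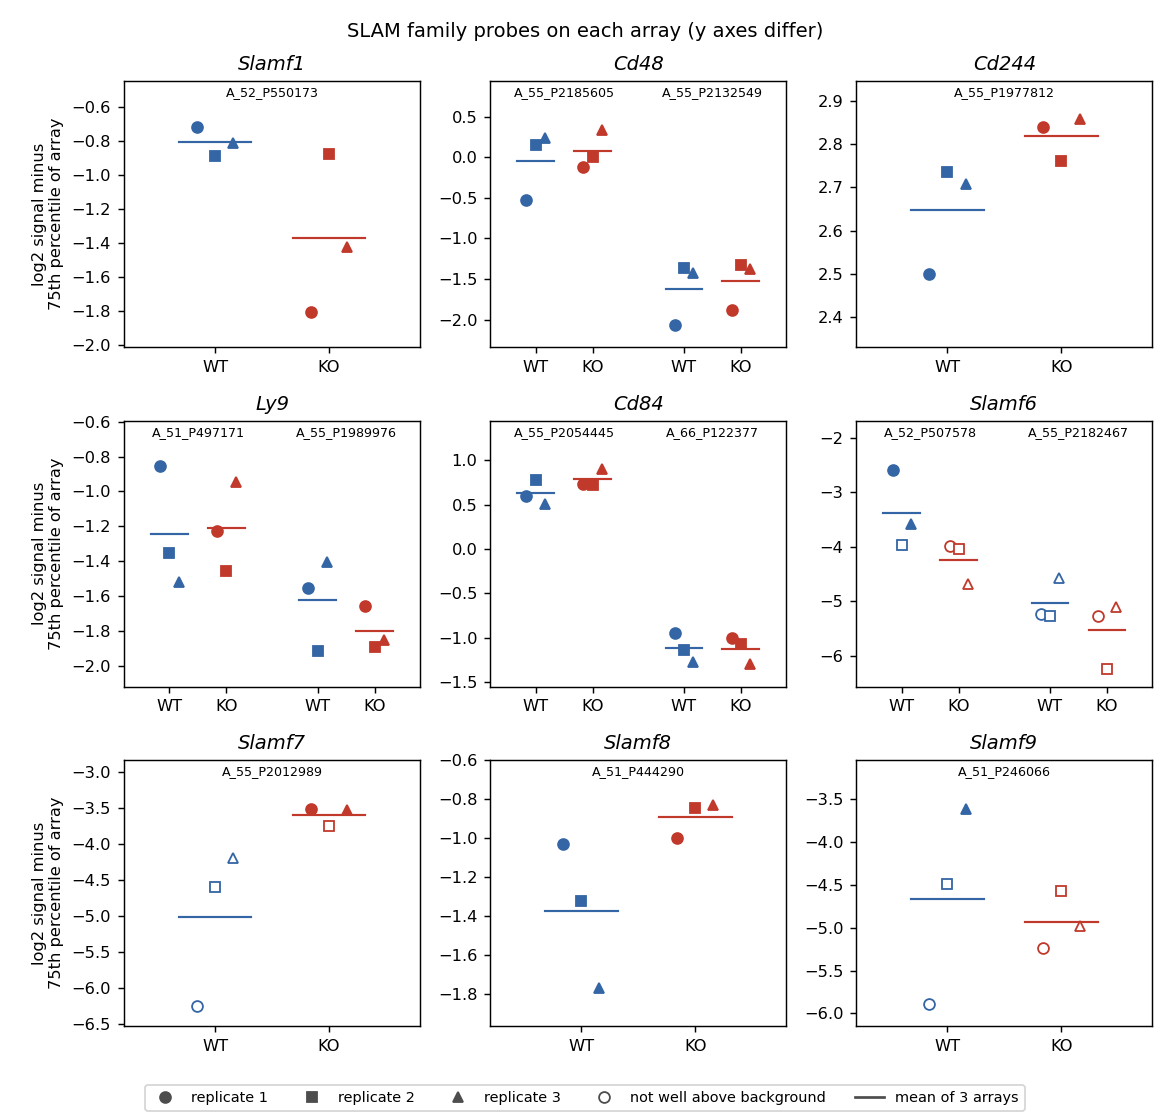
Signal of each SLAM family probe on each array, as log2 intensity minus the array's 75th percentile, for WT (blue) and KO (red); symbols give the replicate number, open symbols a signal not well above background, and lines the mean of 3 arrays. Slamf1 spans -1.81 to -0.88 on the KO arrays against -0.89 to -0.72 on the WT arrays, and Slamf8 is higher on every KO array than on any WT array.

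Slamf1, whose product CD150 is the positive SLAM marker of stem cells, had a lower mean in KO. Its probe at chr1:173730343-173730402 read -0.72, -0.89 and -0.81 on WT replicates 1 to 3. On KO replicates 1 to 3 it read -1.81, -0.88 and -1.42. KO replicates 1 and 3 lay below every WT array, and KO replicate 2 lay among them, so the genotypes overlapped. The KO signal averaged 67.7% of the WT signal (log2 difference -0.56 ± 0.22 SE, 95% interval of the fold 0.468 to 0.979), with an unadjusted limma p of 0.0409 and an adjusted p of 0.401 over all genes. The exact two-sided permutation p was 0.2, where 0.1 is the smallest that 3 against 3 arrays allow. The difference was -0.54 within slide 1, which held 4 arrays, and -0.61 between the 2 arrays of slide 2. It was -0.34 without KO replicate 1 and -0.81 without KO replicate 2. In bulk samples like these, fewer cells with a transcript and less transcript per cell cannot be told apart.

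Cd48 transcripts were present although the gate removes cells with the protein. The probe at chr1:173635201-173635260 read -0.53, 0.15 and 0.24 on WT replicates 1 to 3. On the KO arrays it read -0.13, 0.01 and 0.34. WT replicate 1 was the lowest array, and the genotypes overlapped. The log2 difference was 0.12 ± 0.23 SE (fold 1.08, 95% interval 0.746 to 1.58, limma adjusted p = 0.836 over all genes). The second probe, whose sequence is printed above, gave 0.09 ± 0.23 SE (limma adjusted p = 0.885 over all probes), and the 2 probes ran together over the 6 arrays (r = 0.878). Within slides 1 and 2 the first probe differed by 0.13 and 0.10. WT replicate 1, the lowest array for Cd48, was also the lowest for neutrophil markers and for Hba-a1 and Hbb-b1. Without WT replicate 1 the Cd48 difference was -0.12. The Cd48 difference was -0.016 without KO replicate 3.

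Cd244 encodes the receptor that CD48 binds. Its probe at chr1:173515388-173515447 read 2.50, 2.74 and 2.71 on the WT arrays. The KO arrays read 2.84, 2.76 and 2.86. All 3 KO arrays lay above all 3 WT arrays, as they did for 9.77% of all genes, and KO replicate 2 was close to WT replicate 2. The difference was small (0.17 ± 0.10 SE, fold 1.13, 95% interval 0.962 to 1.32, limma adjusted p = 0.489 over all genes; exact two-sided permutation p = 0.1). It measured 0.18 and 0.15 within slides 1 and 2, and 0.10 without WT replicate 1, the lowest array. Cd2, the gene of another receptor that binds CD48 in mice, was well above background on 2 of 3 WT arrays and 3 of 3 KO arrays. It passed the filter through its KO arrays, and on WT replicate 1 its signal was not well above background, so its difference is not given. Cd48 and Cd244 had their lowest signal on the same array, WT replicate 1. That array was also the lowest in neutrophil markers and in Hba-a1 and Hbb-b1. The part of neutrophils or of other cells in either signal was not tested.

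Ly9 encodes CD229, a receptor that binds itself and has been used to subdivide stem cells. The Ly9 probes at chr1:173518744-173518790 and with the switch pattern did not follow each other (r = -0.021 over 6 arrays). The first read -0.86, -1.35 and -1.52 on the WT arrays. On the KO arrays it read -1.23, -1.46 and -0.95. The genotypes overlapped, and the difference was 0.03 ± 0.20 SE (fold 1.02, 95% interval 0.731 to 1.43, limma adjusted p = 0.953 over all genes). The switch-pattern probe read -1.56, -1.92 and -1.40 in WT. In KO it read -1.66, -1.89 and -1.86, a difference of -0.18 ± 0.15 SE (limma adjusted p = 0.644 over all probes). The first probe changed sign between slides, at -0.24 within slide 1 and 0.57 within slide 2, and the switch-pattern probe measured -0.04 and -0.45. Both probes overlapped between the genotypes.

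Cd84 encodes a receptor that binds itself and is carried by many blood cells, platelets and mast cells among them. One of its probes covers 2231 bases of the genome from chr1:173816502-173818732 and so crosses an exon junction. It read 0.59, 0.78 and 0.51 on the WT arrays. On the KO arrays it read 0.74, 0.73 and 0.90. The values overlapped, because WT replicate 2 lay above KO replicates 1 and 2, and the difference was 0.16 ± 0.11 SE (fold 1.12, 95% interval 0.94 to 1.33, limma adjusted p = 0.535 over all genes). It was 0.05 within slide 1 and 0.39 within slide 2. The second probe, at chr1:173820027-173820086, measured -0.01 ± 0.13 SE (adjusted p = 0.984, limma on all probes) and did not follow the first (r = -0.224 over 6 arrays). It ran against the first Cd48 probe instead (r = -0.934 over the same 6 arrays, given as a description of these arrays).

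Slamf6, or Ly108, and Slamf7, also called CRACC, are known from lymphocytes and natural killer cells. For Slamf6, the probe at chr1:173873620-173873679 was well above background on WT replicates 1 and 3 and on no KO array. It read -2.59, -3.97 and -3.58 on the WT arrays. On the KO arrays it read -3.99, -4.05 and -4.69. The KO arrays lay below the WT arrays. This order held for 9.67% of the genes that passed the filter, to which Slamf6 does not belong. WT replicate 2 and KO replicate 1 nearly met, and WT replicate 1 lay well above the rest. As a bound on the KO side, the mean of the WT arrays was at least 1.62-fold higher than the KO signal. WT replicate 2, itself not well above background, entered at its measured signal, and each KO array entered at its measured signal or, if greater, at the dimmest signal that the scanner software still called well above background there. Its other probe, the one with the switch pattern, was not called well above background on any of the 6 arrays.

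Slamf7 had its higher values in KO. Its probe at chr1:173562534-173562593 was well above background on KO replicates 1 and 3 and on no WT array. It read -6.24, -4.59 and -4.20 on the WT arrays. On the KO arrays it read -3.51, -3.75 and -3.53. All KO arrays lay above all WT arrays. This order held for 9.77% of the genes that passed the filter, to which Slamf7 does not belong. By the rule used for the Slamf6 bound, the KO signal was at least 1.6-fold higher than in WT. KO replicate 2, itself not well above background, entered at its measured signal. When dim probes were kept in the fit, the limma adjusted p over 34650 genes was 0.669 for Slamf6, 0.65 for Slamf7 and 0.835 for Slamf9. With dim probes kept, all genes together leaned towards KO, with a median difference of 0.071, beside -0.006 with the filter. Of the genes at an unadjusted limma p under 0.05, 63.6% were then higher in KO, beside 59% with the filter. Markers of natural killer and T cells were partly at background: of 10 on the array, Cd3g, Cd8a and Ncr1 were not well above background on any array. Il2rb was well above background on 0 WT and 2 KO arrays, Gzma on 0 and 1, and Cd3d on 1 and 1. The other 4, Cd3e, Cd4, Klrb1c and Nkg7, passed the filter, with summed signals of 12.7 to 14.4 in WT and 12.8 to 15 in KO. Cd3e was the 1 of these 4 whose genotypes did not overlap, against 19.4% of all genes. It was higher on every KO array than on any WT array (0.20 ± 0.11 SE, limma adjusted p = 0.491), as were 9.77% of all genes. The part of such cells in these signals was not tested.

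Slamf8 and Slamf9 encode members with short tails that lack the switch motif, and both are known from myeloid cells. The Slamf8 probe at chr1:174512067-174512126 read -1.03, -1.32 and -1.77 on the WT arrays. The KO arrays read -0.996, -0.85 and -0.83. All 3 KO arrays lay above all 3 WT arrays, as for 9.77% of all genes, though KO replicate 1 and WT replicate 1 nearly met. The KO signal was 1.4-fold that of WT (log2 difference 0.48 ± 0.19 SE, 95% interval of the fold 1.03 to 1.89), with an unadjusted limma p of 0.0364 and an adjusted p of 0.397 over all genes. The exact two-sided permutation p was 0.1. The WT arrays were the more spread (SD 0.37 against 0.09 in KO), and the difference was 0.26 within slide 1, 0.94 within slide 2 and 0.29 without WT replicate 3. Slamf9, at chr1:174408455-174408514, was well above background on WT replicate 3 alone and read -5.89 to -3.61 in WT and -5.24 to -4.57 in KO, with no order between the genotypes.

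Monocyte and macrophage markers are given beside Slamf8 because such cells carry its product. Of 10 such genes on the array, all 10 passed the filter, Ccr2 and Cx3cr1 through their KO arrays (each was well above background on 2 of 3 WT arrays). By direction, 8 of them had higher values in KO and 2 lower, where 51.1% of all genes had lower values. At an unadjusted limma p under 0.05, 1 was higher in KO, against 7.19% of all genes: Emr1, which encodes the macrophage antigen F4/80 (0.76 ± 0.25 SE, adjusted p = 0.376). Lyz2, the next by p, was lower in KO (-0.356 ± 0.175 SE, limma adjusted p = 0.451). The summed signal of the 10 markers was 9.29 to 14.2 in WT and 12 to 15.2 in KO. The lowest array for these markers was WT replicate 1, whereas the lowest array for Slamf8 was WT replicate 3, where their summed signal was 14.2. Without WT replicate 1 the Slamf8 difference was 0.65. The part of such cells in the Slamf8 difference was not tested.

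**Figure D2:**
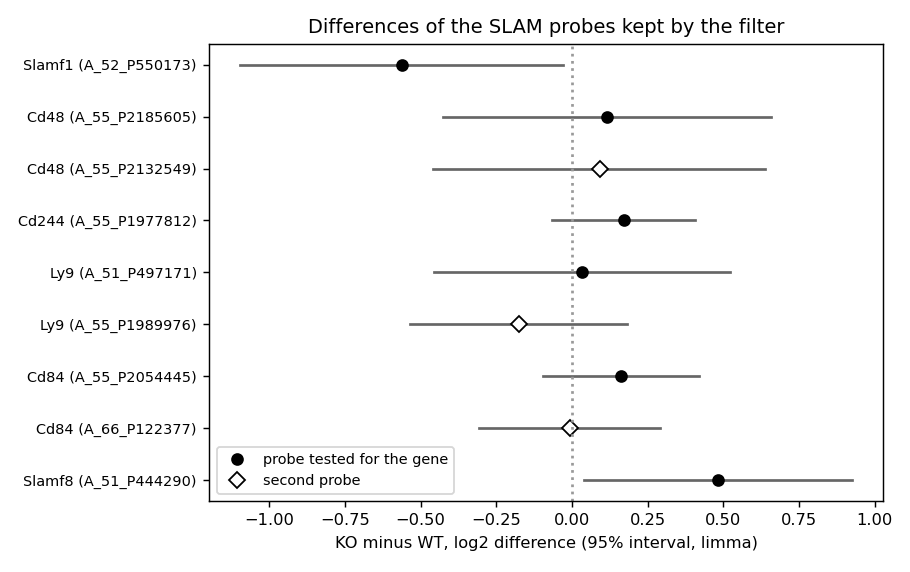
Difference between KO and WT for the 9 SLAM probes that passed the filter, as limma log2 difference with its 95% interval; filled circles are the probes tested for their gene and open diamonds the second probes. The intervals of Slamf1 and Slamf8 leave out 0 before adjustment over all probes, on opposite sides, and those of the other 7 probes include it.

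The differences of the 6 genes varied with the arrays used. Over the arrays left out in turn, Slamf1 ran from -0.81 to -0.34 and Slamf8 from 0.29 to 0.65, and each kept its direction. Cd244 ran from 0.10 to 0.22 and Cd84 from 0.10 to 0.24. Cd48 ran from -0.12 to 0.26 and Ly9 from -0.11 to 0.23, and both changed sign. No member passed the adjusted threshold in any of these fits.

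**Figure D3:**
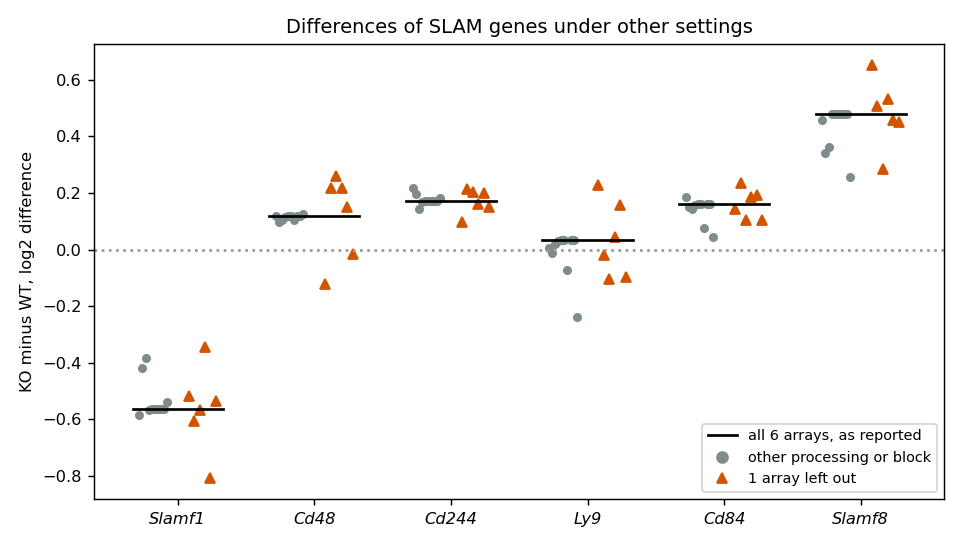
Difference between KO and WT (log2) of the 6 SLAM genes that passed the filter, with all 6 arrays (black line), under other processing, blocks or slide 1 alone (grey circles) and with 1 array left out (orange triangles). Slamf1 stays below 0 and Slamf8, Cd244 and Cd84 above 0 throughout, while Cd48 and Ly9 lie on both sides.

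The members differed in their spread between arrays of a genotype. The residual SD was 0.10 for Cd244 and 0.12 for Cd84, below the median of 0.144 over all genes. It was 0.27 for Slamf8, 0.30 for Ly9 and 0.34 for Slamf1 and for Cd48, larger than in 81.5% to 89.4% of all genes. Slamf1 and Cd244 ran against each other over the 6 arrays (r = -0.742), and Slamf1 and the first Cd48 probe did not follow each other (r = -0.178). These are descriptions of 6 arrays that share 2 slides and 2 genotypes.

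The partners that carry the signal of SLAM receptors inside the cell showed no difference that passed. Of 20 partner genes, 17 passed the filter, 0 passed the adjusted limma threshold over all genes, and 0 were at an unadjusted p under 0.05, beside 12.2% of all genes. Their median difference was -0.025, with 6 higher and 11 lower values. The 3 SAP-family adaptor genes Sh2d1a, Sh2d1b1 and Sh2d1b2 were not well above background on any array. Fyn, the Src-family kinase that SAP brings to the receptors, measured -0.49 ± 0.13 in WT and -0.54 ± 0.26 in KO (mean ± SD, n = 3 each). Inpp5d, the lipid phosphatase SHIP, differed by -0.025 ± 0.10 SE, and Ptpn6, the tyrosine phosphatase SHP-1, by -0.025 ± 0.11 SE. Ptpn11, the related phosphatase SHP-2, had the lower values on all KO arrays (-0.18 ± 0.09 SE, limma adjusted p = 0.446). It was the 1 of 17 partners whose genotypes did not overlap, against 19.4% of all genes (9.67% with KO below WT). Prkcq, a protein kinase C that acts after Slamf1 in T cells, differed by -0.21 ± 0.12 SE (limma adjusted p = 0.494), and Lck, a Src-family kinase, by 0.19 ± 0.11 SE (limma adjusted p = 0.5).

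The listed genes of stem cells and of multipotent progenitors also did not pass the adjusted threshold. Of 15 stem cell genes, 0 passed, 11 had lower values in KO and 2 were at an unadjusted limma p under 0.05, both lower: Esam, an endothelial adhesion molecule carried by stem cells (-0.43 ± 0.12 SE, adjusted p = 0.362), and Vwf, the von Willebrand factor gene of platelet-biased stem cells (-0.31 ± 0.11 SE, adjusted p = 0.376). Procr, the gene of the stem cell marker EPCR, differed by -0.17 ± 0.09 SE. It was 1 of 4 among the 15 stem cell genes whose genotypes did not overlap, against 19.4% of all genes. The 4 stem cell genes with higher values in KO were Mecom (0.25 ± 0.15 SE), Hlf (0.215 ± 0.12 SE), Mllt3 (0.18 ± 0.12 SE) and Robo4 (0.18 ± 0.12 SE). Of 7 multipotent progenitor genes that passed the filter, 0 passed the threshold, 6 had higher values in KO, and 3 of these reached an unadjusted p under 0.05: Satb1 (0.46 ± 0.12 SE), Notch1 (0.66 ± 0.19 SE) and Flt3 (0.42 ± 0.13 SE), with limma adjusted p of 0.361 to 0.366. Against these, 5% of all genes were lower and 7.19% higher at that p.

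**Figure D4:**
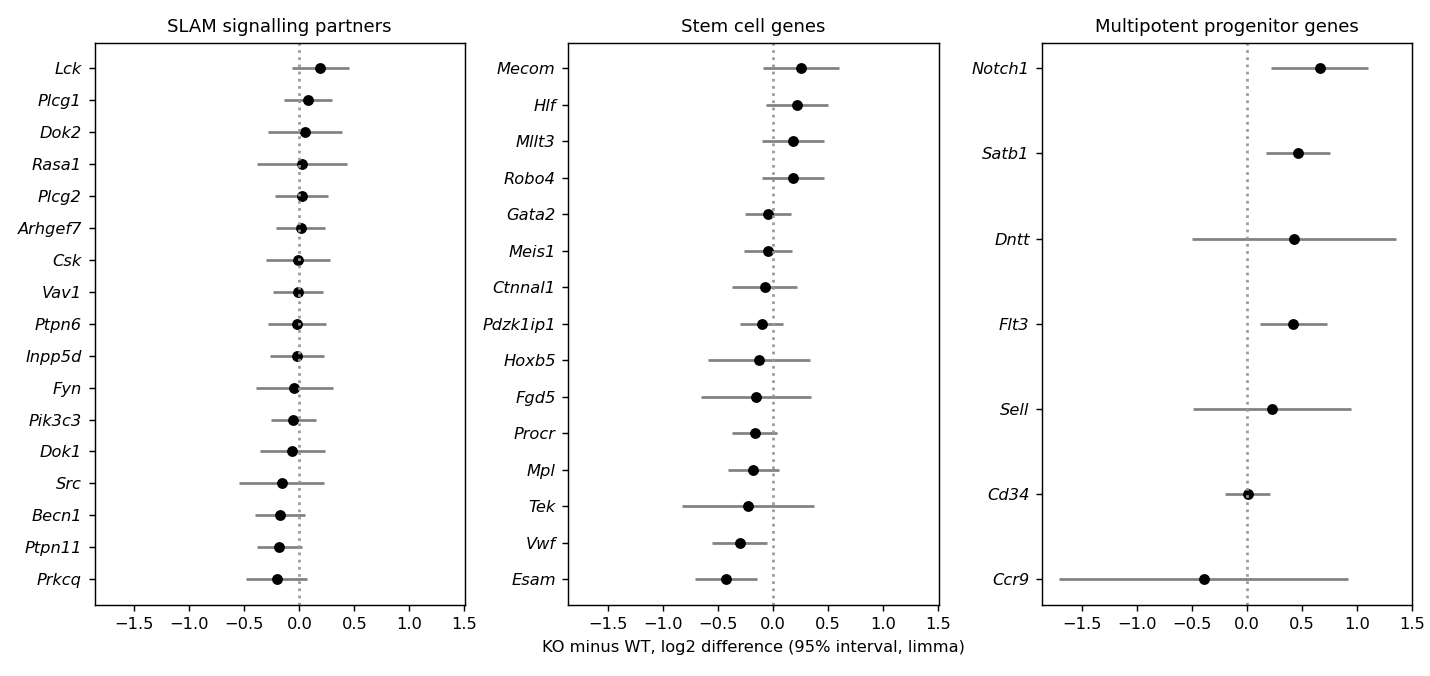
Difference between KO and WT (limma log2 difference with its 95% interval) for the SLAM signalling partners, the stem cell genes and the multipotent progenitor genes that passed the filter. The 17 partners lie between -0.21 and 0.19, and every one of their intervals includes 0.

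The genes most like each member over the 6 arrays were named by the highest Pearson correlation among the 19611 genes. For Slamf1 they were Slc25a45 (r = 0.9952), Sbno2 (0.9937) and Tmem68 (0.9928), with differences of -0.10, -0.39 and -0.16. For Cd48 they were the transcript ENSMUST00000089689, a probe of an interval on chromosome 10 and Cenpb (r = 0.9894 to 0.9936). For Cd244 they were 4930474N09Rik, Aldh8a1 and a probe of an interval on chromosome 11 (0.9982 to 0.9987). For Ly9 they were Zkscan2, Ube2d1 and Dsg1c (0.9758 to 0.9807), for Cd84 Arhgap9, Dhrs3 and Notch2 (0.9857 to 0.995), and for Slamf8 Cyp26b1, Nxpe4 and Vipr1 (0.9852 to 0.9866). An r over 0.9, a lower mark than any value above, was reached with Cd244 by 4.17% of all genes and with Slamf1 by 2.19%. For Cd48 the share was 1.37%, for Cd84 0.882%, for Slamf8 0.714% and for Ly9 0.296%. These values describe 6 arrays and carry no test. No member was among the 3 nearest genes of another.

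The probes of the 9 genes lie within 997 kb of chromosome 1, and those of 7 genes, all but Slamf8 and Slamf9, within 358 kb. Between the outermost member probes, 16 other genes passed the filter. None of them passed the adjusted limma threshold, 8 had lower values in KO, and their median difference was 0.028. At an unadjusted p under 0.05, 2 of the 16 were higher in KO and 0 lower, where 12.2% of all genes reached that p (7.19% higher and 5% lower): the transcript ENSMUST00000097466, whose probe lies between those of Cd84 and Slamf6 (0.50 ± 0.19 SE, adjusted p = 0.393), and the unnamed probe A_55_P2082841 (0.50 ± 0.15 SE, adjusted p = 0.366).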

How the data were processed

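Total RNA of sorted bone marrow cells was hybridised to 1-colour arrays, 3 per genotype. The deposited scanner files hold intensities, which Agilent Feature Extraction 10.7.3.1 had corrected for background and detrended within each array, per the file headers; no step between arrays is named there. The authors' deposited value table holds the same intensity divided by a constant per array (304 to 368, medians 0.0638 to 0.075) on a linear scale, found by setting it against the scanner values. Its scaling rule is not stated, and it served as an alternative.

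Control spots and 92 to 155 outlier spots per array were left out, no spot was saturated, and the log2 values of spots of 1 probe were averaged. Each array's 75th percentile over probes was subtracted. A gene with several probes was tested on the probe with the highest mean. The filter kept genes and probes that the scanner software called well above background on the 3 arrays of 1 genotype or of both. KO was compared with WT in limma 3.58.1 (lmFit and eBayes, R 4.3.3) over all genes and over all probes, with Benjamini-Hochberg adjustment. The fit was tested on simulated data. The number of arrays limits the precision.

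The arrays lay on 2 slides, of 4 and 2 arrays, with both genotypes on each. Replicate numbers are shared by the genotypes in the labels; deviations of same-numbered arrays correlated at -0.025, 0.153 and 0.071, so the numbers were not treated as pairs. Members and lists were chosen with earlier results of these data known. Named genes are all members, partners, gate genes and Cd2, and the 3 genes most like each member. Up to 3 genes of smallest p per list are named, and the stem cell and progenitor genes that went against most of their list. Genes between the member probes are named at an unadjusted p under 0.05. Spred1 is given as the targeted gene. Accessions of all 13 member probes matched a RefSeq table (GRCm38.p6), which names Cd244 as Cd244a.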

Additional observations from a re-analysis of the deposited data

How the results depend on the processing

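No SLAM gene or probe, no partner and no list gene passed the adjusted limma threshold under any setting that was run. Over all genes, 2 were higher and 2 lower in KO. Quantile normalization gave 1 higher and 0 lower, normexp with quantile normalization 5 and 4, normexp with the 75th percentile 5 and 4, no filter 0 and 0, genes well above background on all 6 arrays 1 and 0, the slide as a block 2 and 1, and slide 1 alone 0 and 0. With the replicate number as a block there were 0 higher and 0 lower. With 1 array left out in turn, 0 to 2 were higher and 0 to 3 lower. The 2 SLAM genes at an unadjusted p under 0.05 became 0 with the replicate block, 0 within slide 1, 1 with the slide as a block (Slamf8), 1 without the filter (Slamf7), 3 under normexp with quantile normalization, and 0 or 1 with an array left out.

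Directions that turned were all of differences near 0. Ly9 measured -0.013 under normexp with quantile normalization, -0.071 as the mean of its probes and -0.24 within slide 1, and ran from -0.11 to 0.23 over the arrays left out (below 0 without WT replicate 2, WT replicate 3 or KO replicate 3). Cd48 ran from -0.12 to 0.26 on its first probe and from -0.13 to 0.26 on its second (below 0 without WT replicate 1 or KO replicate 2), and the second Cd84 probe from -0.084 to 0.081 (above 0 without WT replicate 1 or KO replicate 3). The cause was not tested. Slide 2 holds 1 array per genotype and gave values with no test. Slamf6, Slamf7 and Slamf9 lie near background, where their signal limits what can be read.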
